A study of Mus musculus with 20 samples.

Results

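The genes described here encode the nuclear subunits of the oxidative phosphorylation complexes in the thoracic aorta of irradiated mice. Members were the genes of the deposited count table whose symbols belong to the Nduf, Sdh, Uqcr, Cox4 to Cox8 or Atp5 families and whose mean count over the 20 mice was at least 20. The table listed 21078 genes, of which 87 matched by symbol and 81 reached the minimum. By symbol, 37 belonged to complex I, 4 to complex II, 8 to complex III, 15 to complex IV and 17 to complex V. Fat-cell markers stood far higher in 2 mice than in the others, and heart muscle markers in the proton mouse at 75 cGy, which was among them. Those 2 mice are described by themselves, and the trends with dose are given with all 20 mice and again without the 2.

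RNA was sequenced from 20 male wild-type C57BL/6 mice aged 10 to 12 weeks. The whole body received proton radiation in 10 mice and gamma radiation in the other 10, at 0, 5, 10, 25, 50, 75, 100, 125, 150 or 200 cGy, with 1 mouse at each dose of each type, and the aorta was taken 4 hours later. The mouse at 0 cGy of each type was a sham control placed in the irradiator without exposure. A trend with dose therefore rested on 10 mice, and no dose of a type had a replicate mouse.

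The authors had resampled every library to a common depth, so the total count was between 6051657 and 6058006 in all 20 mice and counts of a gene could be compared directly. Smooth muscle markers were abundant throughout, with 120155 to 161018 Acta2 counts in 18 mice, 121361 in the gamma mouse at 100 cGy and 77335 in the proton mouse at 75 cGy. The table held no row for any of the 13 subunits encoded in mitochondrial DNA, which were not analysed here. Count and gene GC content were related differently in the 4 mice at 150 and 200 cGy: the correlation across 9702 genes lay between -0.40 and -0.35 in those mice and between -0.018 and 0.29 in the other 16, so the highest doses and this property of the libraries cannot be told apart.

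Oxidative phosphorylation takes place in the inner mitochondrial membrane. Complexes I and II pass electrons from NADH and succinate to ubiquinone, complex III passes them to cytochrome c, and complex IV passes them to oxygen. Complexes I, III and IV pump protons, and complex V, the ATP synthase, uses the proton gradient to make ATP. Several complex IV subunits exist in a form found in most tissues and a form restricted to tissues such as heart, skeletal muscle and brown fat. Brown adipocytes carry many mitochondria and the uncoupling protein Ucp1, which returns protons without making ATP, and rodent brown fat is known for a low content of ATP synthase. Brown fat surrounds the mouse thoracic aorta.

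Most members were strongly expressed. Levels between genes were compared as CPM (each count scaled by its library total) per kilobase of the longest protein-coding transcript. The highest in complex I was Ndufa4, now assigned to complex IV, at 254 ± 52.6 in gamma mice (SD, n = 10), and in complex II it was Sdha, the flavoprotein of succinate dehydrogenase, at 95.3 ± 28.8. Uqcrh, the hinge protein of complex III, reached 285 ± 35.7, Cox4i1, the common form of subunit 4, 385 ± 62.0, and Atp5b, the catalytic beta subunit, 391 ± 118. These levels understate genes whose longest annotated transcript is unusually long, such as Atp5g1 with 4715 bases. In the proton mice the standard deviations were wider, for example 524 ± 416 for Atp5b, because they include the proton mouse at 75 cGy. The lowest members on this scale were Atp5s at 4.1 ± 0.9, Ndufa4l2 at 5.1 ± 2.0 and Cox4i2 at 5.2 ± 1.4 in gamma mice.

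The minimum count set the lower edge of the list. Cox4i2, the lung-enriched form of subunit 4, with a mean of 22.9 counts, and Ndufa4l2, a hypoxia-responsive paralogue of Ndufa4, with 29.7, were just inside it. Cox6a2, the heart and skeletal muscle form of subunit 6a, with 17.85, and Cox6b2, the testis form of subunit 6b, with 10.45, were just outside. The other 4 genes below the minimum had means of 1 count or less. The symbol rule also took in Cox4nb, a neighbour of Cox4i1 that is not a subunit of the complex, and Atp5s and Atp5sl, which are not core subunits of the synthase. Several subunits have processed pseudogenes, and reads from such copies may have been counted for the gene or lost.

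The proton mouse at 75 cGy had 2.5% of its counts in the 81 genes. The other 9 proton mice had between 0.686% and 0.952%, with the largest shares at 150 and 0 cGy. The gamma mouse at 100 cGy had 1.19%, against 0.71% to 0.80% in the other 9 gamma mice. Both mice were thus outside the range of their type, and both are single animals whose difference from the others has no replicate. In whole tissue, a change in the number of cells of a type and a change in the RNA of each cell cannot be told apart.

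**Figure D1:**
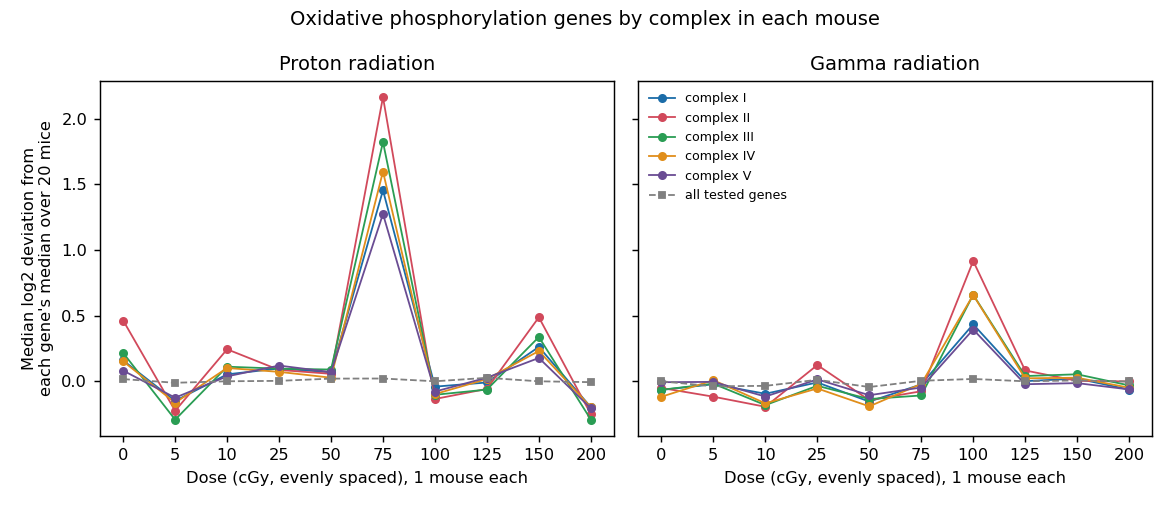
Median over the genes of each complex of the log2 deviation from each gene's median over the 20 mice, by dose (evenly spaced) for proton and gamma radiation, with 1 mouse at each dose. The proton mouse at 75 cGy lay at 1.27 to 2.16 in the 5 complexes and the gamma mouse at 100 cGy at 0.39 to 0.92, while all tested genes stayed near 0.

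The same complexes led in both mice. For each gene the log2 of CPM + 1 was set against the median of the other 9 mice of the type. In the proton mouse at 75 cGy the median difference was 2.11 for complex II, 1.77 for complex III, 1.61 for complex IV, 1.42 for complex I and 1.27 for complex V, against 0.02 for all 13124 tested genes. In the gamma mouse at 100 cGy it was 0.95 for complex II, 0.72 for complex IV, 0.71 for complex III, 0.46 for complex I and 0.45 for complex V, against 0.04 for all tested genes. Complex II was highest in each, and the order of complexes III and IV differed. Complex V was lowest in each, but in the gamma mouse by little. Without Atp5s and Atp5sl, the middle gene of complex V in the gamma mouse was Atp5h at 0.48, above the complex I median. Members with transcripts of 1000 bases or more had medians of 1.61 in the proton mouse and 0.65 in the gamma mouse, and shorter members 1.37 and 0.49. All complex II genes are in the longer group, so complex and transcript length were not separated.

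CPM values of 79 of the 81 members were higher in the proton mouse at 75 cGy than in any other proton mouse, compared with 29.3% of all tested genes. In the gamma mouse at 100 cGy 68 members were above the other 9 gamma mice, compared with 19.7% of all tested genes. The 2 exceptions in the proton mouse were Cox4i2 and Cox4nb. These 2 mice are described because they stand apart, so the counts are a description of them and not a test.

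**Figure D2:**
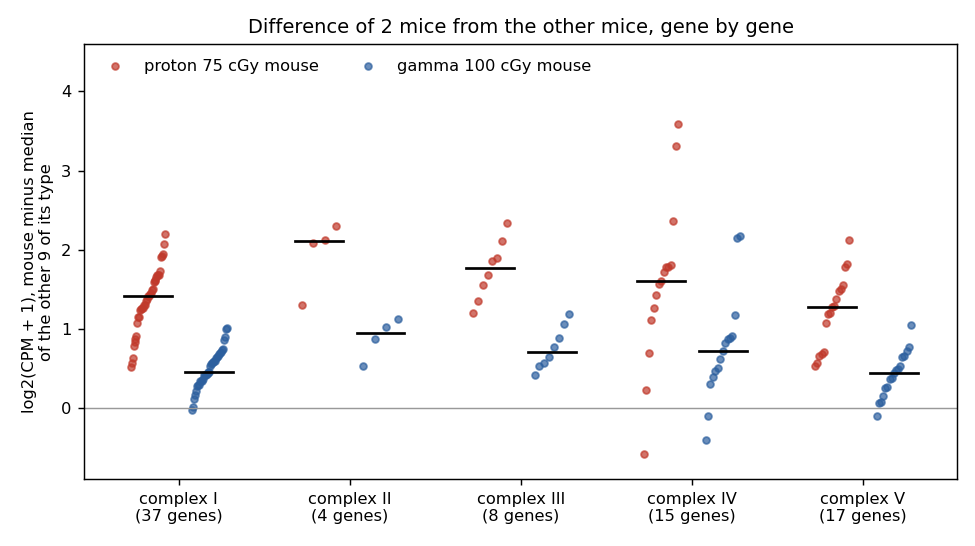
Difference in log2(CPM + 1) between the proton mouse at 75 cGy or the gamma mouse at 100 cGy and the median of the other 9 mice of its type, with 1 point for each gene and a bar at the median of each complex. In the proton mouse the differences ran from -0.58 to 3.58, and in the gamma mouse from -0.40 to 2.17.

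The largest differences belonged to the same 5 genes in both mice: Cox7a1, Cox8b, Cox5a, Uqcrfs1 and Sdhb. Cox7a1 is the heart, muscle and brown fat form of subunit 7a of cytochrome c oxidase. It had 857 counts in the proton mouse at 75 cGy, and the other 9 proton mice had 19 to 194 with a median of 66. The gamma mouse at 100 cGy had 269 counts, and the other 9 gamma mice had 27 to 67 with a median of 56. The difference was 3.58 on the log2(CPM + 1) scale in the proton mouse and 2.15 in the gamma mouse.

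Cox8b, the corresponding restricted form of subunit 8, had 1864 counts in the proton mouse at 75 cGy and 71 to 487 in the other 9, with a median of 182. It had 698 counts in the gamma mouse at 100 cGy and 50 to 192 in the other 9, with a median of 150. Neither range reached the mouse that stood apart. After that mouse the highest proton count of both Cox7a1 and Cox8b was at 150 cGy.

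Cox5a, a subunit of complex IV present in most tissues, had 1940 counts in the proton mouse at 75 cGy against 258 to 493 in the other 9. The gamma mouse at 100 cGy had 767 against 258 to 345. Uqcrfs1, the Rieske iron-sulfur protein of complex III, had 2325 against 322 to 650 in proton mice and 944 against 350 to 484 in gamma mice. Sdhb, the iron-sulfur subunit of succinate dehydrogenase, had 2505 against 393 to 740 and 1057 against 421 to 545. These 3 genes differed by 2.37, 2.34 and 2.31 in the proton mouse and by 1.18, 1.20 and 1.12 in the gamma mouse.

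The promoters of these 5 genes are shown because the genes stood highest together in both mice. Each line gives the 150 bases immediately before the RefSeq transcription start, 5′ to 3′ on the strand of the gene, in build GRCm38.p6. They lie at chr7:30184021-30184170 (plus strand) for Cox7a1, chr7:140900447-140900596 (minus) for Cox8b, chr9:57521082-57521231 (plus) for Cox5a, chr13:30545317-30545466 (minus) for Uqcrfs1 and chr4:140961121-140961270 (plus) for Sdhb. Capitals mark a match to CATGCGC on either strand, a core motif of the nuclear respiratory factor NRF1.
Cox7a1: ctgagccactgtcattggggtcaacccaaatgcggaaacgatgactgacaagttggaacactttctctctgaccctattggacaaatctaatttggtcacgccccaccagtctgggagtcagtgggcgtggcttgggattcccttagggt
Cox8b: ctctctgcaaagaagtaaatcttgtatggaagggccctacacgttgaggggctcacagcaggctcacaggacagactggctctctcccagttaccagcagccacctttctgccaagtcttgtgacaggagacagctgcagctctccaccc
Cox5a: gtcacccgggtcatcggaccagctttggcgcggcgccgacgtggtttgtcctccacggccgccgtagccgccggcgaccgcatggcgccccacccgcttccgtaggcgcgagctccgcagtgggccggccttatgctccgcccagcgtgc
Uqcrfs1: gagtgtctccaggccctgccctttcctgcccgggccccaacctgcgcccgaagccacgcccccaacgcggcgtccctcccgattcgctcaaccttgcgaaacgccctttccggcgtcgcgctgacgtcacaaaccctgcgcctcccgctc
Sdhb: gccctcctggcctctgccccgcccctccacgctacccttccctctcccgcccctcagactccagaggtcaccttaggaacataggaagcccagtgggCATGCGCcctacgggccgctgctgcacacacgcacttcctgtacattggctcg

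Among these 5 promoters Sdhb alone held the CATGCGC letters in the stretch shown. RefSeq promoter windows, from 250 bases before to 50 after a start, were matched for 67 of the 81 members and gave 73 windows. CATGCGC was present on either strand in 17.8% of them, against 4.8% of the 21263 windows of all protein-coding genes. The ETS letters CCGGAAG were present in 21.9% against 11.6%, and the YY1 letters ATGGCGG in 17.8% against 5.25%. In all, 47.9% of the members' windows held at least 1 of the 3 motifs, against 19.2% of all windows. No matches to different motifs shared bases in a member's window. Cox7a1, Cox8b, Cox5a and Uqcrfs1 held none of the 3 in their windows. A match describes letters only and is no evidence of binding.

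The common and restricted forms of complex IV subunits differed unequally from the other mice. Cox7a1 made up 37.6% of the counts of Cox7a1 and Cox7a2 in the proton mouse at 75 cGy and 25.6% in the gamma mouse at 100 cGy. In the other 18 mice its share was 3.61% to 22.1%, and the next highest were the proton mice at 150 cGy with 22.1% and at 0 cGy with 19%. Cox8b made up 44.8% of the counts of Cox8b and Cox8a in the proton mouse at 75 cGy, 37.9% at 150 cGy and 32.5% at 0 cGy. In the gamma mouse at 100 cGy it was 37.5%, and the other 9 gamma mice ranged from 8.35% to 23.6%. The common partners were also higher in the mice that stood apart, with 1423 Cox7a2 counts against 507 to 684 in the other proton mice and 2297 Cox8a counts against 614 to 818.

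Cox6a2 separated the 2 mice. It had 329 counts in the proton mouse at 75 cGy, or 10.9% of the counts of Cox6a2 and Cox6a1, and 0 to 5 counts in the other 9 proton mice. In the gamma mouse at 100 cGy it had 0 counts, and the other gamma mice had 0 to 4. A count of 0 allows up to 3 counts at this depth, or 0.495 CPM, for counting error only, so the 2 mice differed in this gene by more than counting error. Cox4i2 had 28 counts in the proton mouse at 75 cGy and 9 to 30 in the other proton mice, so it overlapped them, while Cox4i1 had 4479 against 1252 to 1694.

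**Figure D3:**
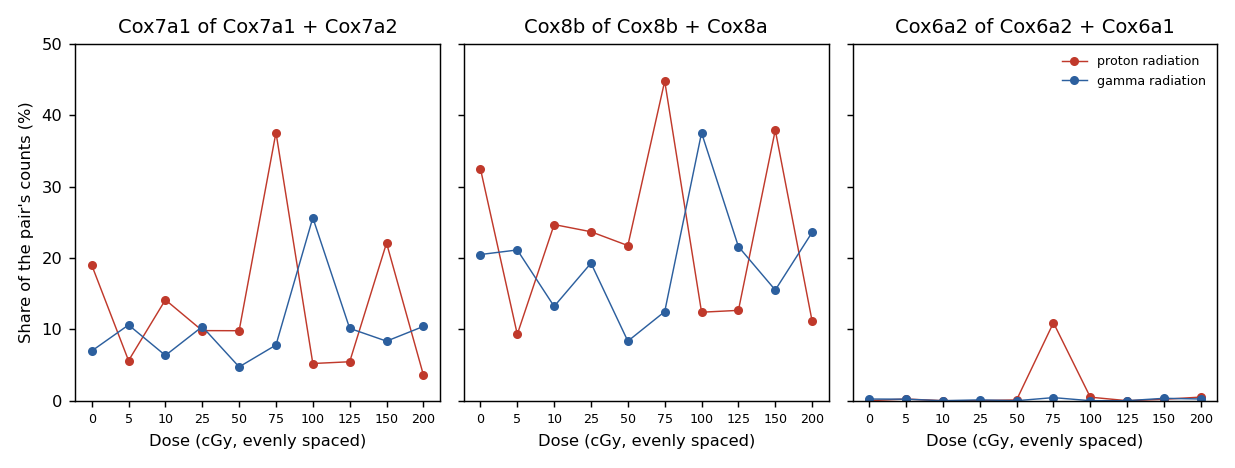
Share of counts taken by the tissue-restricted form in 3 pairs of complex IV genes, by dose (evenly spaced), with 1 mouse at each point. Cox7a1 and Cox8b peaked in the proton mouse at 75 cGy and the gamma mouse at 100 cGy, and Cox6a2 reached 10.9% in the proton mouse at 75 cGy and at most 0.507% in the other 19 mice.

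Marker genes of other cell types were read in the same libraries. Ucp1, the brown fat uncoupling protein, had 7108 counts in the proton mouse at 75 cGy and 158 to 2150 in the other 9 proton mice. It had 2478 counts in the gamma mouse at 100 cGy and 130 to 472 in the other gamma mice. The summed level of the 8 brown adipocyte markers was 2420 CPM in the proton mouse at 75 cGy and 159 to 680 in the other proton mice, and 913 in the gamma mouse at 100 cGy against 156 to 253. Of these 8 markers 7 were highest in the proton mouse among proton mice and 8 in the gamma mouse among gamma mice. The 8 were Ucp1, Cidea, Elovl3, Dio2, Otop1, Cpt1b, Fabp3 and S100b. In the proton mouse at 75 cGy Fabp3 had 1515 and Cpt1b 347 counts. Heart muscle markers were high there too, and whether these counts came from fat or from heart muscle was not tested. The 10 general adipocyte markers, such as the hormone adiponectin, summed to 11923 CPM in the proton mouse at 75 cGy against 813 to 2707, and to 4950 in the gamma mouse at 100 cGy against 760 to 1977. All 10 were highest in each mouse, with median differences of 3.28 and 1.78.

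Heart muscle markers were high in the proton mouse at 75 cGy alone. Myh6, the atrial and adult ventricular myosin heavy chain of the mouse, had 6721 counts there and 5 to 105 in the other proton mice, and 0 counts in the gamma mouse at 100 cGy. The summed level of the 8 cardiac markers was 3240 CPM in the proton mouse at 75 cGy, 17.5 to 63.7 in the other proton mice and 13.2 in the gamma mouse at 100 cGy. All 6 cardiac markers with enough counts to be tested were highest in the proton mouse at 75 cGy. Of the ventricular light chains, which were too low to be tested, Myl3 had 70 counts there and 0 to 5 in the other 19 mice, and Myl2 had 0 counts there. The 8 skeletal muscle markers summed to 13.2 CPM in the gamma mouse at 100 cGy against 11.7 to 27.6. They summed to 72.5 CPM against 11.6 to 23.1 in the proton mouse at 75 cGy. Ckm had 404 counts in that mouse against 48 to 110, while Acta1 and Tnnt3 lay within the range of the other proton mice. The 3 red blood cell markers summed to 1274 CPM in that mouse and 1881 in the gamma mouse at 100 cGy, against 23.0 to 998 and 17.8 to 1504 in the other mice of each type. The 7 smooth muscle markers summed to 27441 CPM in the proton mouse at 75 cGy against 45815 to 54830, with 6 of the 7 at their lowest, and to 40558 in the gamma mouse at 100 cGy against 45592 to 55077. The 6 macrophage markers summed to 453 CPM against 127 to 463 in proton mice, and to 479 against 74.8 to 446 in gamma mice, where 4 of the 6 were highest in CPM in the mouse at 100 cGy, Cd163 among them with the same 248 counts as the mouse at 0 cGy. Endothelial markers summed to 1194 CPM against 374 to 1269 and to 989 against 368 to 1286, and fibroblast markers to 5836 against 4682 to 9416 and to 8741 against 3918 to 9157, so neither sum left the range of the other mice of its type. Single markers did leave it: 2 of the 6 endothelial markers, Cdh5 and Kdr, were highest in each of the 2 mice. Kdr had 534 counts in the proton mouse against 31 to 108, and 168 in the gamma mouse against 33 to 123. Of the 5 fibroblast markers 0 were highest in the proton mouse and 1 in the gamma mouse. The part of any of these cell types in the members' levels was not tested.

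The complex I genes were raised unevenly in the 2 mice. The 7 nuclear core subunits, which carry the flavin and iron-sulfur centres or help to bind ubiquinone, had a median difference of 1.74 in the proton mouse and 0.69 in the gamma mouse. The other 30 members of complex I had medians of 1.33 and 0.42. Ndufs1, the largest core subunit, had 2458 counts at 75 cGy against 467 to 844 in the other proton mice. Ndufa11, an accessory subunit, had 561 against 334 to 415, a difference of 0.52, and in the gamma mouse at 100 cGy its 363 counts lay within the 330 to 402 of the others. No test of core against accessory genes was made.

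In complex V the catalytic subunit gene Atp5b had the largest difference in both mice, and the genes for the membrane ring were among the smallest. Atp5b had 19587 counts in the proton mouse at 75 cGy and 3440 to 5974 in the other 9, a difference of 2.12, and 8337 in the gamma mouse at 100 cGy against 3747 to 4628, a difference of 1.05. Subunit c, which forms the ring in the membrane, has 3 genes. Atp5g1 had 432 counts in the proton mouse against 249 to 336, a difference of 0.54, and in the gamma mouse its 259 counts lay within 255 to 313. Atp5g2 and Atp5g3 differed by 0.57 and 0.66 in the proton mouse and by 0.15 and 0.07 in the gamma mouse. Small differences were not confined to the ring, since Atp5j, a subunit outside it, differed by 0.71 and 0.08.

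The smallest difference in both mice was that of Cox4nb, the gene that is not a subunit, at -0.58 and -0.40. It had 901 counts in the proton mouse at 75 cGy, below the 1153 to 1751 of the other proton mice, and 975 in the gamma mouse at 100 cGy, below 1218 to 1676.

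Genes of neighbouring pathways were compared in the same 2 mice. The 13 fatty acid oxidation genes had a median difference of 2.44 in the proton mouse at 75 cGy and 1.35 in the gamma mouse at 100 cGy, and each was above the other 9 mice of its type in both. The 17 genes of the citric acid cycle and pyruvate dehydrogenase had medians of 2.04 and 0.93. The 13 glycolysis genes had 1.27 and 0.39. The 32 assembly factors found in the table, which help to build the complexes and are not part of them, had 0.72 and 0.32, and the 14 regulators of mitochondrial biogenesis 0.61 and 0.24. The 81 members lay between these lists, at 1.45 and 0.54.

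The question of a dose response was addressed with a slope for each radiation type, in log2 units per 100 cGy, tested in edgeR's quasi-likelihood framework with Benjamini-Hochberg adjustment over all 13124 tested genes. A gene was called at an adjusted p of 0.1 or less. For proton radiation 0 of the 81 members were called, where 1.6% of all tested genes rose and 0.16% fell. For gamma radiation 0 members were called, where 5.44% of all tested genes rose and 2.21% fell. No member had an unadjusted p under 0.05 in either fit, compared with 13.3% of all tested genes for proton and 18.4% for gamma radiation. DESeq2 also called 0 members for either type.

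The median slope of the members was -0.037 for proton and 0.059 for gamma radiation, against 0.002 and 0.013 for all tested genes, and the median standard error of a member's slope was 0.217 and 0.209. The slope was above 0 in 21 members for proton and in 61 for gamma radiation. These counts turned with the dose scale and with fat scores. The proton slope was above 0 in 63 members with dose as a rank, in 79 with log2(dose + 1), in 69 with the brown adipocyte score, the mean log2(CPM + 1) of the 8 markers, as a covariate and in 73 with the like score of the 10 general adipocyte markers, where 15 members had an unadjusted p under 0.05 and none was called. It was also above 0 in 74 members without the pair of mice at 200 cGy. The gamma slope was above 0 in 64 and 68 members on the other dose scales, and in 31 and 24 with the covariates. The sign of the median slope was therefore not stable for either type. By complex the median slopes ran from -0.068 in complex II to -0.022 in complex I for proton radiation, and from 0.023 in complex V to 0.14 in complex II for gamma radiation. Complex II had no positive slope for proton radiation and 4 for gamma radiation.

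The smallest unadjusted p belonged to Ndufa4l2 for gamma radiation. It had 23 to 46 counts in the 8 gamma mice from 0 to 125 cGy and 12 and 11 counts at 150 and 200 cGy. Its slope was -0.58 (SE 0.29, edgeR adjusted p = 0.301). In proton mice it had 20 to 46 counts up to 125 cGy and 12 and 13 at the 2 highest doses, with a slope of -0.42 (SE 0.28, edgeR adjusted p = 0.59). The low counts therefore fell in the 4 mice whose counts were related to GC content differently, and from 0 to 125 cGy the slopes were 0.17 and 0.30. Cox7a2l, a factor known for joining complexes III and IV, was next in both fits, with slopes of 0.16 (SE 0.09, edgeR adjusted p = 0.386) for gamma and 0.09 (SE 0.09, edgeR adjusted p = 0.782) for proton radiation.

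Cox7a1 and Cox8b had the widest errors. Their gamma slopes were 0.47 (SE 0.81) and 0.54 (SE 0.72), and their proton slopes -0.14 (SE 0.93) and -0.09 (SE 0.84). Their counts differed up to 10.2-fold and 9.74-fold between mice even among the 18 that remained without the 2 described, while the median member differed 1.49-fold between its highest and lowest of those mice.

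**Figure D4:**
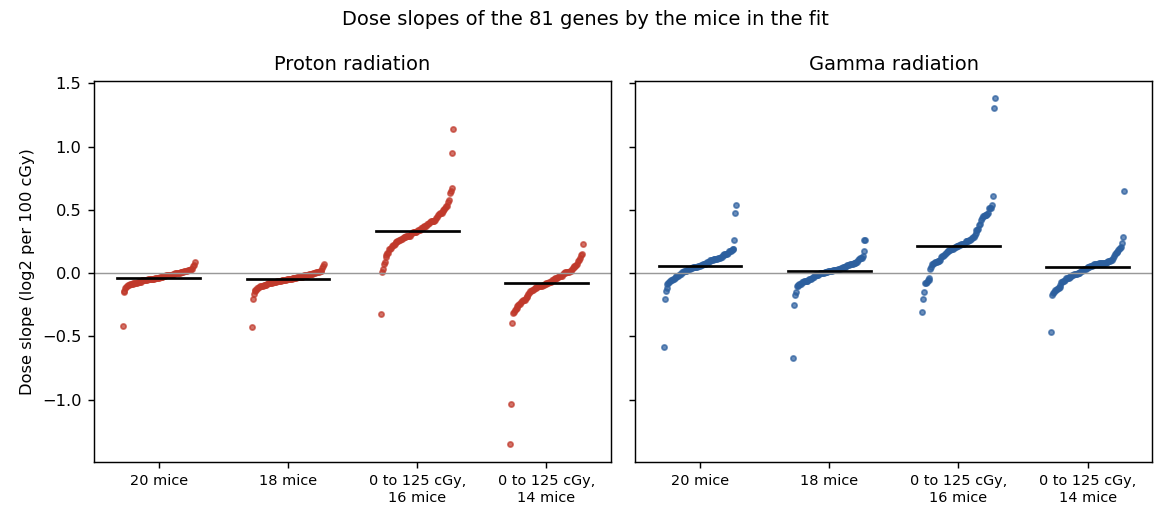
Dose slopes of the 81 members, in log2 units per 100 cGy, fitted to 4 choices of mice, with 1 point for each gene and a bar at the median, for proton and gamma radiation. The median was -0.037 and 0.059 with 20 mice, -0.048 and 0.016 without the 2 mice, 0.33 and 0.21 from 0 to 125 cGy, and -0.082 and 0.045 from 0 to 125 cGy without them.

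At lower doses the slopes rested on the 2 mice. When only 0 to 125 cGy was fitted, 80 members had a positive proton slope and 72 a positive gamma slope, with medians of 0.33 and 0.21, and none was called or had an unadjusted p under 0.05. With both mice also left out, 22 and 50 members had positive slopes and the medians were -0.082 and 0.045. None was called, and the number with an unadjusted p under 0.05 was 9 for proton and 1 for gamma radiation. Few genes of any kind were called in that fit, 0.107% rising and 0.0457% falling with proton dose and 0.305% and 0.061% with gamma dose.

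Over all doses without the 2 mice, the medians were -0.048 for proton and 0.016 for gamma radiation and 1 member was called. Ndufs5, an accessory subunit of complex I, fell with gamma dose by 0.17 per 100 cGy (SE 0.05, edgeR adjusted p = 0.0487). It had 240 to 272 counts in the 6 gamma mice from 0 to 75 cGy and 223, 222 and 203 counts at 125, 150 and 200 cGy, and the gamma mouse at 100 cGy had 297. For all tested genes in that fit 8.58% rose and 5.17% fell with gamma dose. When GC content and transcript length were corrected as well, Ndufs5 still fell, and Cox8a and Ndufa13 rose by 0.25 and 0.20 per 100 cGy (edgeR adjusted p = 0.0628 and 0.0945). In that fit 5.03% of all tested genes rose and 2.16% fell, so the 2 members that rose, 2.47% of the 81, were a smaller share than in all tested genes. With 20 mice the slope of Ndufs5 was -0.14 (edgeR adjusted p = 0.717).

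Rank trends gave the same count. In the exact one-sided permutation test of Spearman's rho against dose, 0 members were called for proton radiation, where 0.198% of all tested genes rose and 0.0% fell. For gamma radiation 0 members were called, where 1.9% rose and 0.411% fell. Without adjustment, 11 members had p under 0.05 for a rise and 1 for a fall with gamma dose, 13.6% and 1.23% of members, against 14.5% and 8.86% of all tested genes. For proton radiation 0 members had p under 0.05 in either direction, against 7.12% and 5.47%. Uqcrq, a small subunit of complex III, had the highest gamma rho at 0.72 (exact permutation adjusted p = 0.188).

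The types were compared through the difference of the slopes and through the level at matched doses. The difference of slopes, proton minus gamma, had a median of -0.089 in the members and -0.002 in all tested genes, and 0 members and 0.0% of all tested genes were called. Its direction was not stable: it was above 0 in 13 members, but in 67 with log2(dose + 1), in 72 from 0 to 125 cGy, in 63 without the pair of mice at 200 cGy, in 76 with the brown adipocyte score as a covariate and in 78 with the general adipocyte score. At matched doses the median difference, proton minus gamma, was 0.15 in members and 0.013 in all tested genes. It was above 0 in 78 members, and again 0 members and 0.0% of tested genes were called. In these edgeR fits no member had an unadjusted p under 0.05, against 1.94% and 7.86% of all tested genes, and DESeq2 called 0 members in both. The median at matched doses was 0.001 without the proton mouse at 75 cGy, 0.23 without the gamma mouse at 100 cGy and 0.068 without both mice. It was -0.052, with 16 members above 0, when the brown adipocyte score was a covariate.

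Ndufa11 and Ndufv3, an accessory subunit of complex I, had the smallest p at matched doses, with proton levels higher by 0.13 (SE 0.06) and 0.18 (SE 0.09) on the log2 scale and edgeR adjusted p = 0.651 and 0.656. For the difference of slopes, Cox4i2 at -0.25 and Atp5s at 0.20 had the smallest p, and their edgeR adjusted p was 1.0.

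Outside the members, the same slopes were read for the other lists. None of the 17 citric acid cycle genes, 13 fatty acid oxidation genes, 13 glycolysis genes, 32 assembly factors or 14 biogenesis regulators was called for either type with 20 mice. In that order, their median slopes were -0.056, -0.060, -0.038, -0.002 and 0.043 for proton and 0.091, 0.21, -0.008, -0.020 and 0.045 for gamma radiation.

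The relation to fat markers was then measured in the 18 mice that remained, a comparison added after the data had been seen. The brown adipocyte score was the mean of log2(CPM + 1) over the 8 brown adipocyte markers and ranged from 3.10 to 5.00 in these mice, with the highest values in the proton mice at 0 and 150 cGy. It was added to the model with both dose slopes, so its coefficient is the log2 change of a gene per unit of score at a given dose and type. The score comes from the same libraries as the genes, and none of its markers is a member. Whether Cpt1b and Fabp3, which are among its markers, tie it to the fatty acid oxidation genes read below was not tested.

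With higher score 37 members rose and 0 fell, against 3.2% and 2.5% of all tested genes. The 37 were 45.7% of the members, and the median coefficient was 0.16 in members and near 0 in all tested genes. By complex 4 of 4 rose in complex II, 6 of 8 in complex III, 6 of 15 in complex IV, 14 of 37 in complex I and 7 of 17 in complex V. Cox7a1 rose by 1.51 (SE 0.20, edgeR adjusted p = 1.2e-04) and Cox8b by 1.49 (SE 0.16, edgeR adjusted p = 3.0e-05). Uqcrfs1 at 0.50, Cox5a at 0.46, Ndufa10, an accessory subunit of complex I, at 0.44 and Sdhb at 0.42 followed. Of the 7 complex I core subunits 5 rose. Of the 35 members with transcripts of 1000 bases or more 22 rose, and of the 46 shorter members 15 rose.

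**Figure D5:**
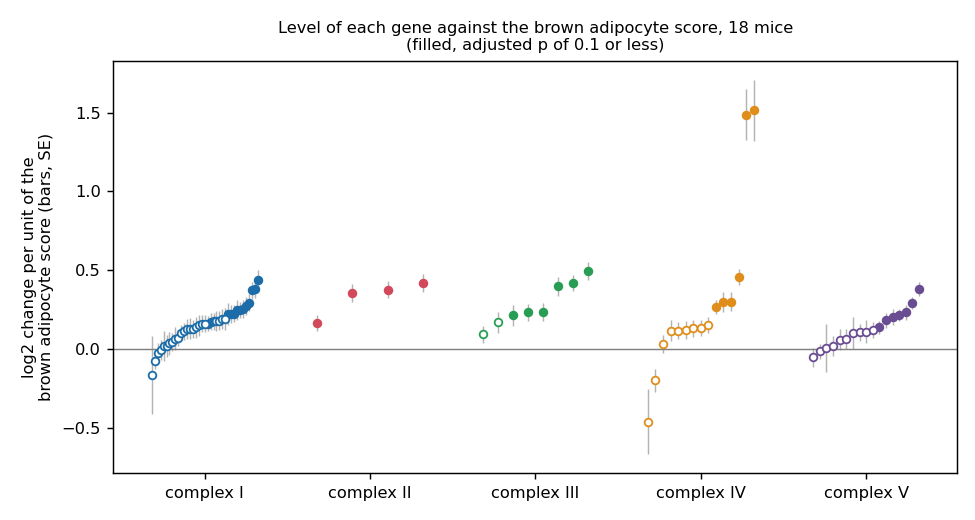
Coefficient of the brown adipocyte score for each member in 18 mice, in log2 units per unit of score, grouped by complex, with bars of 1 standard error and filled points for an edgeR adjusted p of 0.1 or less. All 4 complex II genes and 37 of the 81 members in all were called, and Cox7a1 and Cox8b stood apart at 1.51 and 1.49.

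The subunit c genes Atp5g1, Atp5g2 and Atp5g3 had coefficients of 0.02, 0.06 and -0.05, with standard errors of 0.06 each, and were not called. Cox4i2 at -0.46 (SE 0.21) and Cox4nb at -0.20 (SE 0.07) had the lowest coefficients and were not called. The same coefficient rose in 13 of 13 fatty acid oxidation genes, 15 of 17 citric acid cycle genes and 5 of 13 glycolysis genes. It rose in 4 of 32 assembly factors and 2 of 14 biogenesis regulators. Among other cell type markers 5 of 10 general adipocyte and 2 of 6 endothelial markers rose, and 1 of 7 smooth muscle markers fell. No macrophage, red blood cell, fibroblast, cardiac or skeletal muscle marker was called, with median coefficients of 0.95, 2.36, 0.42, -0.58 and -0.42.

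The proton mice at 0 and 150 cGy carried part of this count. Without the mouse at 0 cGy 29 members rose and 0 fell, against 1.69% and 0.96% of all tested genes. Without the mouse at 150 cGy 23 rose and 1 fell, against 6.27% and 3.8%. Without both 13 rose and 1 fell, against 3.54% and 1.94%. The member that fell was Cox4nb. With the score of general adipocyte markers in place of the brown adipocyte score 17 members rose and 0 fell, against 1.61% and 0.0838% of all tested genes. With the score as a covariate in these 18 mice, the median dose slope of the members was 0.015 for proton and -0.001 for gamma radiation. Ndufs5 again fell with gamma dose as the 1 member called, where 9.07% of all tested genes rose and 5.6% fell.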

How the data were processed

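Polyadenylated RNA of 20 mouse aortas was sequenced. The authors aligned reads to mm9 with STAR 2.5.2a after base calling with CASAVA 1.8.1, per the labels. They resampled libraries to a common depth with PORT and deposited the resulting sense-strand counts per gene. Members and gene lists were chosen with earlier results of these data known. The 13124 genes averaging 5 or more counts, among them all 81 members, were fitted in edgeR 4.0.16 (R 4.3.3, TMM, robust quasi-likelihood) with an intercept and dose slope per radiation type. Matched doses were compared with dose as a block. Benjamini-Hochberg adjusted p of 0.1 was the threshold. Rank trends were exact permutation tests (scipy 1.17.1). DESeq2 1.42.0 and sva 3.50.0 served as alternatives. The edgeR dose slopes, their difference and the matched-dose comparison were tested on simulated data. The rank test was tried on rows of known or random order. The score coefficient and the DESeq2 and sva fits were not tested in this way. CPM values were computed from the deposited counts, with a pseudocount of 1 on the log2 scale.

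Genes given by name were a fixed set of complex IV isoforms, subunit c genes, complex II genes and core subunits, the 2 members with the smallest p in each comparison without calls, the 5 largest and 3 smallest differences of each of the 2 mice, the highest level per kilobase in each complex and the genes at the edge of the minimum. Ndufs5, Ndufa13, Ndufa10, Uqcrq, Atp5j and the list markers were named after their values were seen. With 1 mouse at each dose, p-values of the dose slopes and of the score measure the spread of mice around a line. Those at matched doses measure the spread of the differences within pairs of mice of the same dose. Those of the rank trends come from reordering the doses. Every sample was used.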

Additional observations from a re-analysis of the deposited data

Results flagged for a closer look

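In groups of 10 mice, the distance of the highest or lowest mouse to its nearest neighbour was divided by the range of the group and compared with Dixon's critical value for 10 samples. Of 54 groups read, 43 held such a mouse. Chance flags about 1 in 20 independent groups, but these groups repeat the same 2 sets of 10 mice, and many of the genes were named for their difference in the 2 mice, so the number is a description and no test against that rate. The proton mouse at 75 cGy was the highest of its 10 mice by such a gap in 5 complexes, in the members' share of counts and in 18 of the genes read mouse by mouse. Its gap, as a fraction of the whole range of the group, was 0.853 for the share of counts. For the median deviation of the complexes it was 0.722 for complex I, 0.695 for complex II, 0.702 for complex III, 0.762 for complex IV and 0.741 for complex V. For the counts of single genes it was 0.791 for Cox7a1, 0.768 for Cox8b, 0.86 for Cox5a, 0.836 for Uqcrfs1, 0.836 for Sdhb, 0.843 for Atp5b, 0.525 for Atp5g1, 0.811 for Ndufs1, 0.985 for Cox6a2, 0.807 for Cox7a2, 0.879 for Cox8a, 0.652 for Cox7a2l, 0.845 for Ndufs5, 0.804 for Uqcrh, 0.864 for Ndufa4, 0.833 for Sdha, 0.863 for Cox4i1 and 0.643 for Ndufa11. The gamma mouse at 100 cGy was the highest of its 10 mice by such a gap in 5 complexes, in the members' share of counts and in 13 of the genes read mouse by mouse. Its gap, as a fraction of the whole range of the group, was 0.814 for the share of counts. For the median deviation of the complexes it was 0.702 for complex I, 0.714 for complex II, 0.721 for complex III, 0.743 for complex IV and 0.744 for complex V. For the counts of single genes it was 0.835 for Cox7a1, 0.781 for Cox8b, 0.829 for Cox5a, 0.774 for Uqcrfs1, 0.805 for Sdhb, 0.808 for Atp5b, 0.712 for Ndufs1, 0.647 for Cox7a2, 0.562 for Cox8a, 0.622 for Uqcrh, 0.774 for Ndufa4, 0.828 for Sdha and 0.816 for Cox4i1. In every case the mouse that stood apart was the highest, and it was 1 of the 2 mice described above. The part of fat or heart muscle markers in these gaps was not tested.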

How the results depend on the processing

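The count of 0 members called held in 27 of 27 alternatives for the proton slope, 27 of 27 for the difference of slopes, 26 of 26 at matched doses and 24 of 27 for the gamma slope, and in all rank trend alternatives. The exceptions for the gamma slope were 1 member without both mice, 3 with GC content and length corrected as well and 1 with the brown adipocyte score as a covariate in those mice. In these fits, in that order, 8.58%, 5.03% and 9.07% of all tested genes rose with gamma dose and 5.17%, 2.16% and 5.6% fell. Directions of the members' median slopes that turned without any call are given with the slopes. The median proton slope moved to 0.33 from 0 to 125 cGy, and ran from -0.11 to 0.19 when the pair of mice of each dose was left out in turn. The median at matched doses moved to -0.052 with the score as a covariate and to -0.044 with it and without both mice. For the score, the members called were 78 with 20 mice, 17 with the adipocyte score, 24 without the proton mouse at 150 cGy and 14 without those at 0 and 150 cGy, and the median coefficient was 0.39 with 20 mice and 0.10 without the mouse at 150 cGy, against 37 and 0.16. With 20 mice, which include the 2 described, 77 members rose and 1 fell, against 21.4% and 16.8% of all tested genes. The coefficient of Atp5g3 turned from -0.05 to 0.12 and was called with 20 mice. Without the dose as a replicate block, the median at matched doses was 0.24 and 0 members were called. The cause was not tested. Genes called over the whole table ranged from 14 to 1342 for the proton and 34 to 1926 for the gamma slope. With 1 mouse at each dose, slopes of under about 0.4 log2 units per 100 cGy lay within 2 median standard errors of 0 in the fit to 20 mice. The alternatives without both mice that add a correction, a shorter dose range or the score, and all results for the score, were chosen after seeing the data.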
